A study of Mus musculus with 130 samples.

Results

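The immunoglobulin genes measured in liver RNA of iron-fed mice are described here, gene by gene and summed. They were the genes whose symbol begins as an antibody heavy chain, kappa or lambda gene segment and whose expected counts added to at least 50 over the libraries of the strain panel. Of 35711 genes in that table, 25 met this rule. 1 of them, Ighmbp2 on chromosome 19, encodes a DNA and RNA helicase and no antibody chain, so it was left out of every sum and 24 immunoglobulin genes remained: 11 constant-region genes and 13 variable-region genes. The members were chosen by their total counts in the panel, so how high they stand in the panel is a description, with no test.

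The series measured RNA in a 20 mg piece of the large liver lobe from 130 male mice. The panel held mice of 114 inbred and recombinant inbred strains, with 56 strains of the BXD family, 20 of AXB and BXA, 4 of BXH, 3 of CXB and 31 other inbred strains. All panel mice ate chow for 4 weeks and then a diet with 2% carbonyl iron, which is 20000 ppm, for 6 weeks. The diet study used C57BL/6J alone, with 3 mice on each of 5 diets: 2% iron, 500 ppm iron, 50 ppm iron, chow, and 2% iron with cellulose. Each panel strain had 1 mouse except 129X1/SvJ, which had 2 and enters by its mean, so a strain's value cannot be told apart from that of its mouse, and C57BL/6J, at 16.9 CPM in the panel for the summed level below, was the only panel strain also in the diet study. Libraries held 9.41 to 20.57 M counts (M, 1000000) in the panel and 10.4 to 20.4 M in the diet study. Levels are given as CPM, counts per 1000000 counts of the library after TMM scaling, and the hepatocyte markers summed to a panel median of 112285 CPM. In 1 library, labelled BXD65/RwwJ, the Y-linked genes summed to 3.94 CPM against at least 118 in every other panel library, although the label gives a male.

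An antibody is built from paired heavy and light chains. Each chain joins a variable region, which is assembled from V, D and J segments and binds antigen, to a constant region, which sets the class. Resting B cells make the mu and delta heavy chains of IgM and IgD. Activated B cells may switch to the gamma, alpha or epsilon chains of IgG, IgA and IgE, and plasma cells secrete the product in quantity. Hepatocytes do not make antibody, so such transcripts in liver are read as coming from B-lineage cells resident there or in its blood. In whole tissue, fewer B-lineage cells and less antibody RNA per cell cannot be told apart.

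The heavy-chain constant genes lie together on the minus strand of chromosome 12 (GRCm38, the mm10 build). From upstream to downstream they were Ighm, the mu chain of IgM, at chr12:113418558-113422730, Ighd, the delta chain of IgD, at chr12:113406604-113416324, Ighg3 at chr12:113356224-113361232, Ighg1 at chr12:113325240-113330523, Ighg2b at chr12:113302965-113307933, Ighg2c at chr12:113285325-113288932, and Igha, the alpha chain of IgA, at chr12:113254830-113260236. The 4 gamma genes encode the IgG subclasses. The single kappa constant gene, Igkc, lies on the plus strand at chr6:70726435-70726966. The lambda constant genes Iglc1, Iglc2 and Iglc3 lie on the minus strand of chromosome 16, at chr16:19061618-19062071, chr16:19198396-19200351 and chr16:19065230-19065681.

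The gamma genes resemble each other, and the hinge exon is where they part most visibly. The hinge is the flexible stretch between the antigen-binding arms and the stem, and its cysteines bond the heavy chains to each other. The hinge exons of GRCm38 are shown because the subclass values below depend on telling these genes apart. Capitals mark the in-frame cysteine codons.
Ighg1, chr12:113329844-113329882: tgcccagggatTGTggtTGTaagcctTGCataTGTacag
Ighg2b, chr12:113307261-113307326: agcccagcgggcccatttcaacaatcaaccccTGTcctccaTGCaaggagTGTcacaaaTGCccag
Ighg2c, chr12:113288263-113288325: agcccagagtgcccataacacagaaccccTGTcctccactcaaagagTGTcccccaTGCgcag
Ighg3, chr12:113360529-113360576: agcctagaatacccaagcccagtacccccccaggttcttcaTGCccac
The hinge held 4 cysteine codons in Ighg1, 4 in Ighg2b, 3 in Ighg2c and 1 in Ighg3. Over the whole transcript, 31-base stretches shared with another gene made up 1.72% of Ighg1, 3.63% of Ighg3, 9.29% of Ighg2b and 14.98% of Ighg2c. Ighm, Igha and Igkc shared none, so their counts could not be divided with another gene of the annotation. Many inbred strains carry an Ighg2a gene in place of the Ighg2c of C57BL/6J, and Ighg2c counts in those strains would come from the sequence that both share. The part played by strain sequence differences in any value here was not tested.

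Among the lambda genes, Iglc2 and Iglc3 are near copies. The first 100 bases of their constant exons in GRCm38 are shown because they were hard to separate, with the differing bases in capitals.
Iglc2, chr16:19198753-19198852: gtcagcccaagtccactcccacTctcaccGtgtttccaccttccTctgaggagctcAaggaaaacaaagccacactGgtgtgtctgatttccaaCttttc
Iglc3, chr16:19065582-19065681: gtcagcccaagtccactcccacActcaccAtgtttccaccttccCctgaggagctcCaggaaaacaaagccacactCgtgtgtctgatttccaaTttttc
These stretches differed at 6 of 100 bases, and the exons at 11 of 314, an identity of 96.5%. Shared 31-base stretches made up 19.6% of Iglc2 and 25.1% of Iglc3, so their separate values are uncertain. Iglc1, Iglc3 and Iglv1 also overlap an antisense gene, 2010309G21Rik, and Igkc overlaps Gm30211 on its own strand.

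The members held most of the antibody signal. Of 26978 counts given to 395 immunoglobulin symbols over the panel, the members held 88.3%. The heavy-chain constant genes held 59.9% of these counts, Igkc 21.1% and the lambda constant genes 3.27%. The other 371 symbols fell below the threshold, and every D and J segment was at 0 counts. The V members nearest the threshold were Igkv12-44 with 52.3 counts and Ighv2-2 with 51.9, and the nearest below it were Igkv12-89 with 49 and Ighv1-64 with 48.2. Single libraries carried some members past it: 18 of 24 still reached 50 counts without their highest library, 9 members were highest in NZB/BlNJ, and 49.3% of all Ighg1 counts came from BTBR T<+> tf/J.

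Compared per length, the kappa light chain was the most abundant antibody transcript. The median over 114 strains was 8.49 TPM (transcripts per 1000000, scaled by length) for Igkc and 3.51 TPM for Ighm. It was 1.05 TPM for Igha, 0.857 for Ighd and 0.738 for Iglc2. The remaining constant genes were lower, with median levels of 0.393 TPM for Ighg2b, 0.348 for Iglc3, 0.314 for Iglc1, 0.0945 for Ighg2c, 0.0918 for Ighg1 and 0.0396 for Ighg3. The ranges over libraries of neighbouring genes in this order overlapped throughout.

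IgM was the leading heavy chain across the panel, and 1 strain stood far above the others in it. Ighm had a lowest level of 0.939 CPM in BXD22/TyJ, a median of 4.81 CPM and a highest level of 120.6 CPM in NZB/BlNJ. The next strains were BXD27/TyJ at 24.9 CPM and SJL/J at 19.4 CPM, so NZB/BlNJ lay 4.84-fold above its nearest neighbour. IgD, which marks mature resting B cells, followed another order of strains. Ighd ran from 0 in NZB/BlNJ through a median of 1.14 CPM to 6.60 CPM in BXD48a/RwwJ, ahead of BUB/BnJ at 3.84 CPM and BXD1/TyJ at 3.50 CPM. Igha, the chain of the mucosal class, ran from 0 through a median of 0.942 CPM to 10.95 CPM in BXA2/PgnJ, with BXD5/TyJ at 8.25 CPM and AXB10/PgnJ at 8.19 CPM close behind.

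The IgG genes were near the counting floor in most strains and high in a few. With expected counts rounded to whole numbers, Ighg2b had a median of 0.364 CPM, was at 0 in 19 strains and reached 13.1 CPM in BXD42/TyJ. Ighg1 had a median of 0.0856 CPM, was at 0 in 42 strains and reached 30.3 CPM in BTBR T<+> tf/J. The next strain for Ighg1 was BXD51/RwwJ at 3.37 CPM, 8.98-fold lower. Ighg2c was at 0 in 49 strains and highest in BTBR T<+> tf/J at 3.39 CPM, with BXA13/PgnJ next at 3.09 CPM. Ighg3 was at 0 in 53 strains and did not exceed 0.769 CPM, its level in BXD12/TyJ. A count of 0 in a panel library of median size was taken to allow up to 3 counts, so the strains at 0 cannot be ordered among themselves.

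Igkc, like Ighm, was highest in NZB/BlNJ. It ran from 0.677 CPM in RIIIS/J through a median of 2.88 CPM to 48.6 CPM, with BTBR T<+> tf/J next at 19.8 CPM. Iglc2 had a median of 0.236 CPM and Iglc1 of 0.0801 CPM, and both were highest in NZB/BlNJ, at 2.90 and 3.15 CPM. Iglc3 had a median of 0.0865 CPM and was highest in BXD39/TyJ at 0.716 CPM. Lambda made up a median of 15.6% of light-chain constant TPM over the strains.

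The summed level of the 24 genes varied 53.6-fold over the strains, while most strains lay close together. The lowest strain was RIIIS/J at 3.47 CPM, from 41 counts (exact Poisson 95% interval 2.49 to 4.71). The median strain was at 12.1 CPM, with quartiles of 8.05 and 18.3 CPM. The highest strain was NZB/BlNJ at 185.9 CPM, from 2305 counts (178 to 194). Within 2-fold of the median lay 82 of 114 strains, while 14 lay more than 2-fold below it and 18 more than 2-fold above. The 6 strains more than 3-fold above it were NZB/BlNJ, BTBR T<+> tf/J at 78.4 CPM (73.9 to 83.1), SJL/J at 49.3 CPM, BXD42/TyJ at 47.3 CPM, BXD27/TyJ at 43.4 CPM and AXB10/PgnJ at 39.2 CPM. NZB/BlNJ alone held 9.76% of all member CPM of the panel. These intervals cover counting error only and no difference between mice.

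**Figure D1:**
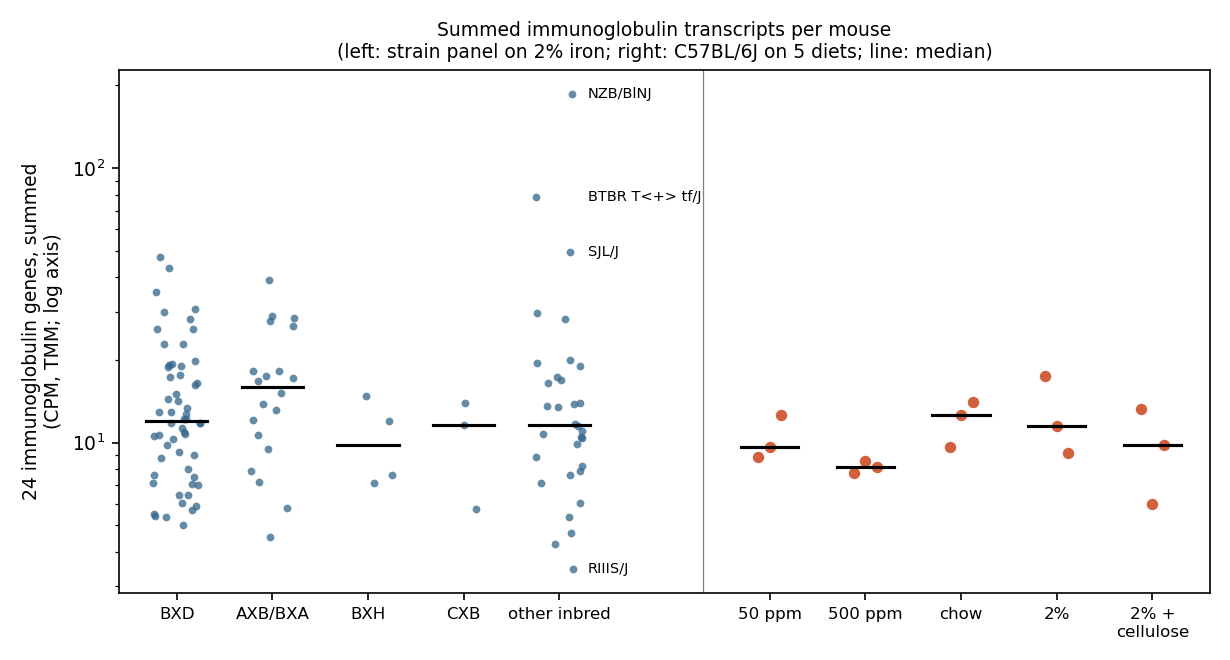
Summed level of the 24 immunoglobulin genes in each mouse (points, CPM on a log axis), with the panel by strain family at the left and C57BL/6J by diet at the right; lines are group medians. The groups overlap, and NZB/BlNJ at 185.9 CPM and BTBR T<+> tf/J at 78.4 CPM stand above all other mice.

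The family ranges overlapped. The median summed level was 12.01 CPM in BXD (range 5.02 to 47.3), 15.98 in AXB and BXA (4.54 to 39.2), 9.83 in BXH (7.13 to 14.8), 11.6 in CXB (5.72 to 14) and 11.5 in the other inbred strains (3.47 to 185.9). Between BXD and AXB with BXA, the 2 largest families, 5 members passed the filter on low counts and edgeR called 0 of them, against 11.6% of all 13794 genes tested. At an unadjusted p under 0.05 there was 1 member by edgeR, against 25.2% of all genes, and 1 by DESeq2. That member was Igha, with a log2 difference of -0.73 (BXD minus AXB and BXA, edgeR adjusted p = 0.182). Of the genes around antibody production, Derl3, which acts in disposal of misfolded secretory protein, was lower in BXD (log2 difference -1.26), as was Fcgr2b, the inhibitory IgG receptor (-0.28). Cxcl13, which draws B cells into follicles, was higher (2.02), as was the activating IgG receptor Fcgr4 (0.68). The calls named here were 1 of 10 plasma-cell genes tested, 2 of 8 receptor and transport genes and 1 of 4 B-cell factor genes, beside 11.6% of all genes. With so few genes tested, no excess over that share can be read. Of 12 B-cell markers and 2 antibody assembly genes tested, 0 passed.

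The strains differed in antibody class as well as in the summed level. As shares of heavy-chain constant TPM, IgM had a median of 50.8% over strains, IgA of 17.7%, IgG of 12.9% and IgD of 11.4%. IgM was the largest class in 91 strains, IgA in 14 and IgG in 9. In the strains highest for Ighm, Ighg1, Ighg2b, Igha and Ighd, that gene was carried by many reads. Ighd was not the leading gene in its strain, BXD48a/RwwJ, where Ighm was at 8.99 CPM and Ighd at 6.60 CPM. Ighm made 98.9% of 1511 heavy-chain counts in NZB/BlNJ (exact binomial 95% interval 98.3 to 99.4). Ighg1 made 56.3% of 778 in BTBR T<+> tf/J (52.7 to 59.8), Ighg2b 43.7% (164 counts) in BXD42/TyJ (38.6 to 48.9), Igha 56.8% of 229 in BXA2/PgnJ (50.1 to 63.3), and Ighd 38.6% of 236 in BXD48a/RwwJ (32.3 to 45.1).

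**Figure D2:**
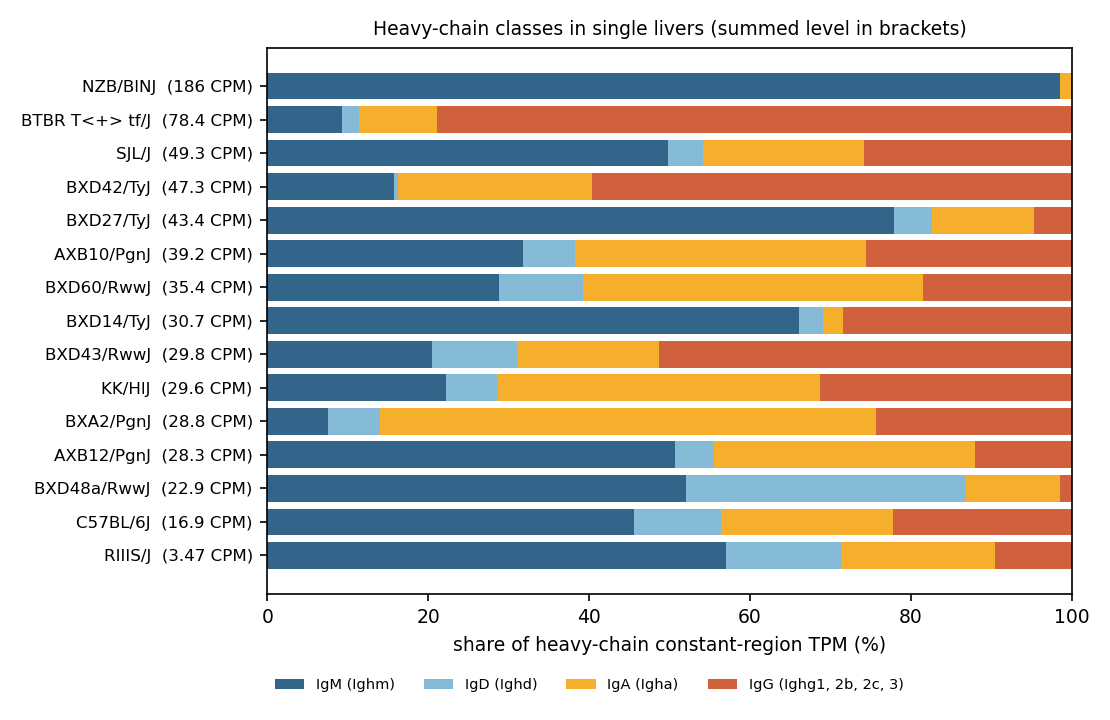
Share of each antibody class in heavy-chain constant TPM (percent, stacked bars) in the 12 libraries with the highest summed level and in BXD48a/RwwJ, C57BL/6J and RIIIS/J, with the summed level in brackets. NZB/BlNJ is almost wholly IgM at 98.5%, while IgG makes 78.9% in BTBR T<+> tf/J and 59.6% in BXD42/TyJ, and IgD makes 34.8% in BXD48a/RwwJ.

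NZB/BlNJ, a strain long used as a model of autoimmunity, had the most one-sided pattern. Its Ighm level was 25.1-fold the panel median and its Igkc level 16.9-fold, and Jchain, which joins IgM and IgA into polymers, was the highest of all strains at 8.23 CPM, 10.4-fold the median. The plasma-cell list, which includes Jchain, was in the middle at 589 CPM (rank 52, median 584). Most of that sum came from Sdc1 and Txndc5 at 171 CPM each, Xbp1 at 144 and Ell2 at 84.7. Of its less abundant genes, Tnfrsf13b ranked 6, Mzb1 35 and Eaf2 85. Ighd had 0 counts, with an exact Poisson 95% upper limit of 0.298 CPM, below the panel median of 1.14 CPM. Ighg1, Ighg2b and Ighg3 had 0 counts and Ighg2c had 1. Of 18 B-cell markers, 14 were below their panel median in this library and 4 above it. Cd79a was at 0.32 CPM and ranked 96 of 114, and Ms4a1, Cd22 and Cd79b ranked 101, 110 and 111. The 4 above were Cd37 at 4.92 CPM (median 3.15), Tnfrsf13c at 0.565 (0.345), Ebf1 at 1.69 (1.06) and Spib at 0.968 (0.613). The whole list summed to 12.3 CPM, rank 101, against a panel median of 18.9. Erythroid markers were also high in this library, at 1643 CPM (rank 5, median 183), and those of T cells were at the middle (rank 64), although Cd3e itself ranked 2. The part of either list in the antibody values was not tested.

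BTBR T<+> tf/J differed from NZB/BlNJ in class. Its Ighg1 level led the panel, and Tnfrsf13b and Tnfrsf13c, receptors for the B-cell survival factors, were higher than in any other strain. Its B-cell list was at 23.1 CPM (rank 28) and its erythroid list at 2621 CPM, rank 1. In both strains the antibody transporters were low: Pigr, which carries polymeric IgA and IgM across epithelium, was at 293 CPM in NZB/BlNJ (rank 113) and 593 CPM in BTBR T<+> tf/J (rank 110) against a median of 1218, and Fcgrt, the receptor that spares IgG from breakdown, was at 30.8 CPM (rank 114) and 67.6 CPM against a median of 119.5. The hepatocyte list was at 75631 CPM in BTBR T<+> tf/J (rank 113) and 125677 CPM in NZB/BlNJ (rank 29) against a median of 112285, and its part in the transporter levels was not tested. BXD48a/RwwJ, highest for Ighd, was also highest for the B-cell genes Ms4a1, Pax5, Cd79b, Fcer2a and Fcmr. SJL/J, with the third-highest summed level, ranked 1 in the T-cell and the Kupffer cell lists.

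Variable-region reads were too few in most libraries to describe a repertoire. V segments had from 4 to 372.6 counts per library, with a median of 26, and 13 reached the rule: Iglv1, Iglv2, Igkv1-110, Igkv1-117, Igkv1-135, Igkv10-96, Igkv15-103, Igkv14-111, Igkv19-93, Igkv12-44, Ighv9-3, Ighv1-82 and Ighv2-2. Their levels were low, with Igkv1-110 at a median of 0.0762 CPM and at 0 in 52 strains, Iglv1 at a median of 0.0332 CPM and at 0 in 57, and the other 11 at 0 in 67 to 90 strains. Iglv1, Iglv2, Ighv1-82 and Ighv2-2 were highest in NZB/BlNJ, at 2.26, 2.50, 0.645 and 1.37 CPM. Several have near copies in the genome, with 63.6% of Igkv1-110 and 68.3% of Ighv2-2 in shared 31-base stretches, and none of Igkv15-103 or Igkv19-93. NZB/BlNJ and BTBR T<+> tf/J had enough reads to look at. NZB/BlNJ had 372.6 V counts over 73 genes, and its top gene was Igkv12-89 with 34 counts, 9.13% of the total and 34 of the 49 counts of that gene in the panel. Next in NZB/BlNJ were Iglv2 with 31.1 counts and Iglv1 with 27.9, and the 3 together made 24.96%. BTBR T<+> tf/J had 277 V counts over 87 genes, led by Ighv9-3 with 10.7 counts or 3.86%. The median share of the top V gene over all strains was 12.5%, a value that rises as fewer counts are divided. Igkv12-89 lies below the rule and was named after its values were seen.

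Mice of 1 strain could differ as much as many strains did. The 129X1/SvJ mice were at 16.5 and 4.29 CPM in the summed level. The related lines BXD48/RwwJ and BXD48a/RwwJ were at 9.03 and 22.9 CPM, and BALB/cJ and BALB/cByJ at 5.36 and 10.4 CPM. AXB19/PgnJ, AXB19a/PgnJ and AXB19b/PgnJ lay closer, at 17.5, 17.2 and 13.1 CPM. The SD over strains, in log2 CPM, was 2.10 times the SD between C57BL/6J mice on 1 diet for Ighm, 2.12 times for Ighd, 1.77 times for Igkc, 1.76 times for Igha and 2.43 times for the summed level. The same ratio was 1.69 for the median gene of 12345. By this ratio Ighm and Ighd stood at percentiles 72.5 and 73.1 of all genes, and Igkc and Igha at 54.8 and 54.2, all inside the range of ordinary genes. Both SDs behind the ratio were larger for these genes. The SD over strains was 0.892 (Ighm) to 1.28 (Igha), against 0.323 for the median gene. Between mice on 1 diet it was 0.424 (Ighm) to 0.728 (Igha), against 0.186. The part of counting error in either SD was not tested.

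Igkc and Igha ran with Jchain across strains, and Ighd with Cd79a and Ms4a1. Pearson's r over 114 strains was computed in log2 CPM for 4 constant genes with each of 6 partners, 24 relations in all, with permutation p-values adjusted together by the Benjamini-Hochberg method, and 12 passed at 0.05. Igkc rose and fell with Jchain (r = 0.82, Spearman's rho = 0.75, two-sided permutation p = 1e-05, the smallest that 100000 permutations can give, adjusted p = 4.8e-05), and r was 0.78 without the 2 most distant strains. Within families, r for that pair was 0.73 in BXD, 0.94 in AXB with BXA and 0.91 in the other inbred strains. Igha also followed Jchain (r = 0.59, rho = 0.59, permutation p = 1e-05, adjusted p = 4.8e-05, r = 0.61 without the 2 most distant strains), with 0.58, 0.78 and 0.53 in those families. Ighm also followed Jchain (r = 0.55, rho = 0.44, permutation p = 1e-05, adjusted p = 4.8e-05, r = 0.43 without the 2 most distant strains), with 0.39, 0.54 and 0.73 in the families, and the value in AXB with BXA did not pass there (adjusted permutation p = 0.0648). Mzb1, the other plasma-cell gene among the partners, had an r of 0.19 with Ighm, 0.23 with Igkc, 0.15 with Igha and 0.13 with Ighd, and of these only Igkc passed (rho = 0.26, permutation p = 0.0153, adjusted p = 0.0306, r = 0.22 without the 2 most distant strains). Derl3, also on the plasma-cell list, had an r of -0.09 with the summed level.

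Ighd followed Cd79a, the signalling chain of the B-cell receptor (r = 0.69, rho = 0.69, permutation p = 1e-05, adjusted p = 4.8e-05, r = 0.69 without the 2 most distant strains), with 0.73 in BXD, 0.41 in AXB with BXA (adjusted permutation p = 0.222) and 0.68 in the other inbred strains. It followed Ms4a1, which encodes CD20 (r = 0.66, rho = 0.63, permutation p = 1e-05, adjusted p = 4.8e-05, r = 0.62 without the 2 most distant strains), with 0.61, 0.65 and 0.63. Its r with Jchain was 0.09 (rho = 0.16, permutation p = 0.315, adjusted p = 0.344), 0.19 without the 2 most distant strains and 0.20 without NZB/BlNJ, which was highest for Jchain and lowest for Ighd (adjusted permutation p = 0.0583). Differences between these correlations were not tested. The other 7 that passed were weaker, with r between -0.29 and 0.32. Among them, Ighm and Hamp, the iron hormone hepcidin of hepatocytes, had r = -0.29 (rho = -0.11, permutation p = 0.00284, adjusted p = 0.0065), and without NZB/BlNJ r was -0.17 (adjusted p = 0.0999). The r of these genes with library size lay between -0.12 and 0.065.

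**Figure D3:**
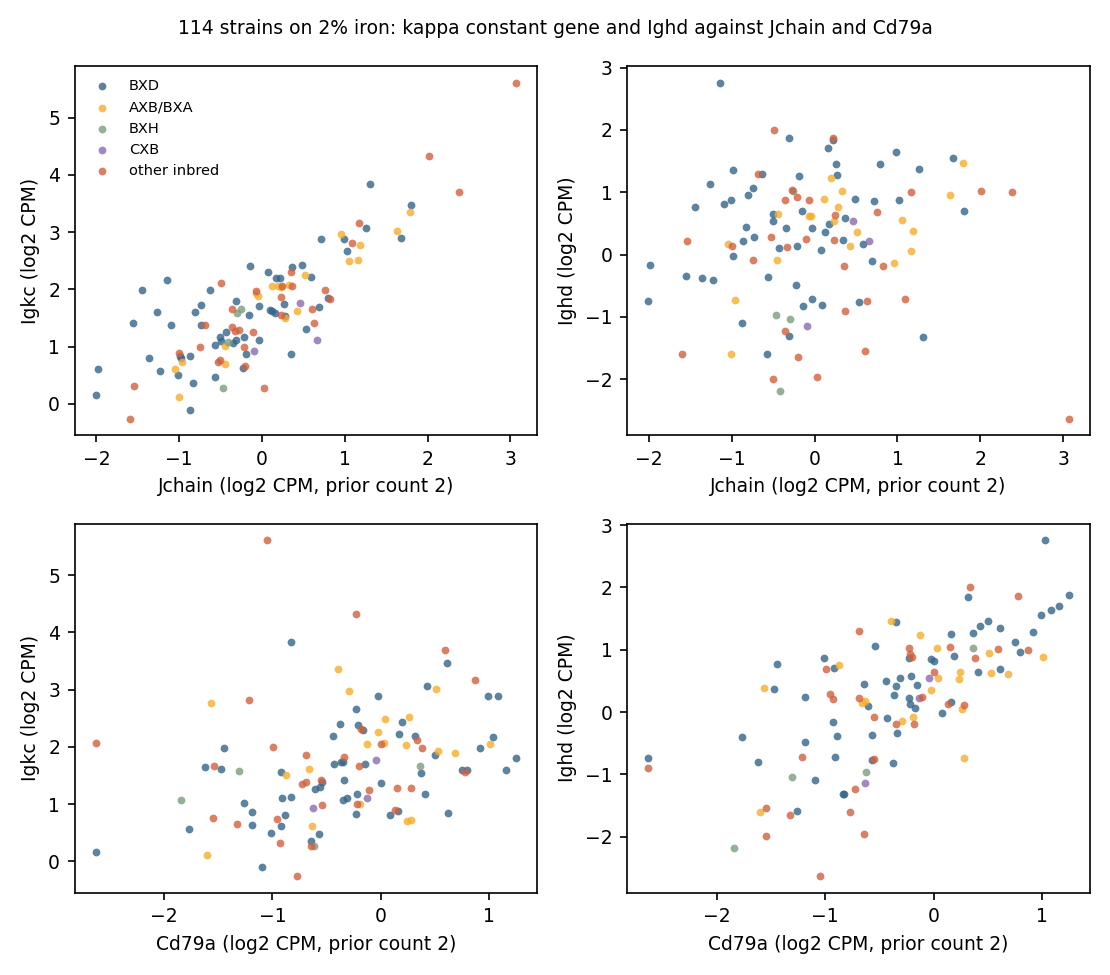
Igkc (left) and Ighd (right) against Jchain (top) and Cd79a (bottom), 1 point per strain coloured by family, all axes in log2 CPM. Igkc rises with Jchain (r = 0.82) and Ighd with Cd79a (r = 0.69), while the r of Ighd with Jchain is 0.09, and NZB/BlNJ is the point highest for Jchain.

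The genes outside the set whose levels ran most like the summed level, among 12908 genes over 114 strains, were led by Jchain (r = 0.78), then Akna (0.60), Fmnl1 (0.54), Spn (0.54), Atp2a3 (0.54), Incenp (0.53), Ccdc88c (0.51), Coro1a (0.51), Arhgap45 (0.51) and Arhgdib (0.50). They were chosen for this likeness, so these values carry no test. Jchain and Akna stayed at the head of the list without NZB/BlNJ, at 0.75 and 0.57. Spn, which encodes CD43, and Coro1a, an actin regulator, are genes of white blood cells.

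In C57BL/6J, 1 member, Ighd, passed in 1 of 6 diet contrasts, and that call depended on the settings. Only 4 of the 24 members, Ighm, Igkc, Igha and Ighd, had counts enough to pass the filter, with 28 to 96 counts per library for Ighm, 10 to 53 for Igkc, 5 to 29 for Igha and 3 to 27 for Ighd. Ighd was at 2.23, 2.22 and 1.53 CPM in the mice on 2% iron and at 0.26, 1.26 and 0.72 CPM on 500 ppm. All 3 mice on 2% iron lay above all 3 on 500 ppm. How many of all genes part the mice in this way was not counted, here or for the diets below. By edgeR, 2 of the 4 members and 26.9% of all 13560 genes had an unadjusted p under 0.05 on this contrast. For Ighd the log2 difference was 1.33 ± 0.41 (SE, n = 3 mice per diet), with an edgeR adjusted p of 0.0498, at the very edge of the threshold. It passed in 1 of the 6 fits that each left out 1 mouse, that without 500 ppm replicate 2 (adjusted p = 0.00933), and the log2 difference lay between 0.98 and 1.97 over them. The call held with DESeq2 (adjusted p = 0.0404) and was lost with RLE size factors (0.0513), no filter (0.0734), limma on log2(TPM + 1) or log2(TPM + 0.1) (0.0914 and 0.109) and only the 2 groups compared (0.142). On this contrast 6.59% of all 13560 genes were called higher and 11.3% in either direction, beside 1 of the 4 members tested. On 50 ppm Ighd was at 0.77, 0.97 and 0.91 CPM, below every mouse on 2% iron (log2 difference 1.17, edgeR adjusted p = 0.0764), and on chow at 1.32, 0.84 and 1.38 CPM (0.75, adjusted p = 0.205). On the 2% iron diet labelled with cellulose as fibre source, Ighd was at 1.37, 0.79 and 1.23 CPM. These values lay below the 3 mice on the other 2% iron diet (-0.81, edgeR adjusted p = 0.418), whose label names no fibre source. The contrasts with 2% iron share its 3 mice.

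Ighm, Igkc and Igha passed in no diet contrast. Ighm was at 7.37, 4.44 and 4.09 CPM on 2% iron, at 3.53, 3.29 and 5.24 on 500 ppm, at 3.68, 4.83 and 3.64 on 50 ppm, at 3.85, 6.15 and 6.97 on chow and at 5.71, 2.47 and 3.92 on 2% iron with cellulose. The diets overlapped throughout. Igkc was at 4.39, 2.13 and 2.05 CPM on 2% iron, above the mice on 500 ppm at 0.95, 1.93 and 1.08 (log2 difference 1.07, edgeR adjusted p = 0.123), and at 1.65, 2.03 and 3.31 on 50 ppm, 2.35, 2.51 and 2.61 on chow and 2.57, 0.88 and 2.46 with cellulose. Igha was at 1.41, 1.51 and 0.43 CPM on 2% iron, 1.89, 1.02 and 0.36 on 500 ppm, 1.55, 0.77 and 2.40 on 50 ppm, 1.13, 1.49 and 1.89 on chow and 1.77, 0.97 and 0.77 with cellulose, again with overlap. Members called were 0 on 2% against 50 ppm (15.7% of all genes), on 500 against 50 ppm (0%), on 2% against chow (22.8%), on chow against 50 ppm (0.391%) and on 2% with cellulose against 2% (0.0811%). In those contrasts the members at an unadjusted p under 0.05 by edgeR were 1 on 2% against 50 ppm, which was Ighd, and 0 in the others. The share of all genes at that p was 30.2% on 2% against 50 ppm and 3.16% on 500 against 50 ppm. It was 35.2% on 2% against chow, 10.4% on chow against 50 ppm and 13% on 2% with cellulose against 2%. The summed level was 12.7 ± 4.26 CPM on 2% iron (SD, n = 3), 9.70 ± 3.64 with cellulose, 8.16 ± 0.41 on 500 ppm, 10.4 ± 1.94 on 50 ppm and 12.1 ± 2.21 on chow.

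**Figure D4:**
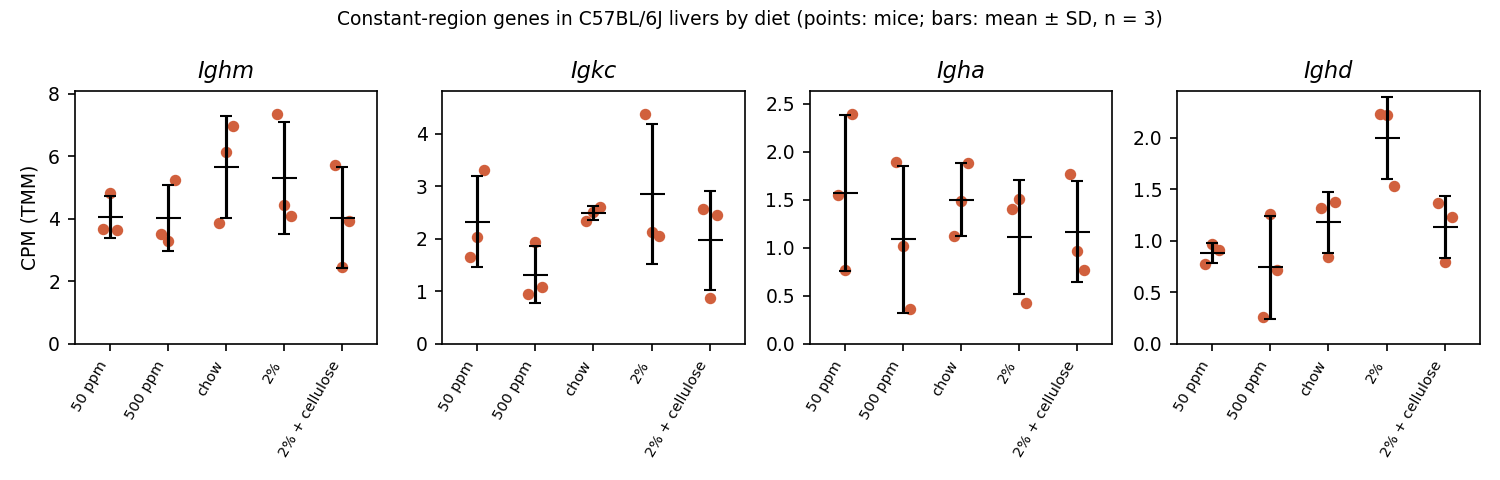
Levels of Ighm, Igkc, Igha and Ighd in each C57BL/6J mouse (points, CPM) on the 5 diets, with the mean ± SD (n = 3) as bars. For Ighd, the 3 mice on 2% iron lie above those on 500 ppm, 50 ppm and chow, while the diets overlap for Ighm and Igha. How many of all genes part the mice in this way was not counted.

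Some genes of B cells were higher on 2% iron, and some genes of the plasma-cell list were lower. Among all genes tested, 8.52% of all genes were higher and 7.17% lower on 2% iron than on 50 ppm, 6.59% and 4.75% than on 500 ppm, and 11.9% and 10.9% than on chow. Of 10 B-cell markers tested, 3 were higher on 2% iron than on 50 ppm, the adaptor Bank1 (log2 difference 1.48), the inhibitory receptor Cd22 (1.15) and Cd37 (1.23). Bank1 (1.99) and Cd72 (1.71) were higher than on 500 ppm, and those 4 genes than on chow. The defining markers Cd79a and Ms4a1 passed in none of the 3 contrasts. The list sum, with the called genes in it, was between 19.4 and 29.5 CPM on 2% iron and 18.7 to 24.3 with cellulose. It was 11.4 to 12.8 on 500 ppm, 11.9 to 14.3 on 50 ppm and 11.1 to 13.2 on chow. This sum lay above the rest on both iron-rich diets. It includes Bank1, Cd22, Cd37 and Cd72, and whether the list without them was higher was not tested. Between 2% iron and 50 ppm the mice overlapped for Ms4a1 and not for Cd79a, which was higher on 2% iron. Of 8 plasma-cell genes tested, none was higher in these contrasts and Txndc5, a folding enzyme of the secretory pathway, was lower on 2% iron than on 50 ppm (-0.49), 500 ppm (-0.47) and chow (-0.40). Txndc5 lay between 92.7 and 157 CPM over the diet mice, while Jchain reached at most 1.21 CPM. Which cells made the Txndc5 RNA was not tested. Sdc1, the surface marker of plasma cells that liver cells also make, was lower on 2% iron than on chow (-0.57). Jchain was at 0.36 ± 0.32 CPM on 2% iron and 1.06 ± 0.14 on chow (SD, n = 3; log2 difference -1.50, edgeR adjusted p = 0.19).

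Of 8 antibody receptor and transport genes tested, 4 were higher and 1 lower on 2% iron than on 50 ppm, 4 and 0 than on 500 ppm, and 4 and 1 than on chow. Fcgr1, Fcgr3 and Fcgr4, activating IgG receptors of macrophages, and Fcer1g, their signalling chain, were higher than on 50 ppm by log2 differences of 1.93, 2.06, 2.09 and 1.43. The 1 lower was the transporter Fcgrt against 50 ppm (-0.35) and the transporter Pigr against chow (-0.57). Markers of other cells moved on the same diets: 8 of 8 Kupffer cell genes and 5 of 6 erythroid genes were higher on 2% iron than on 50 ppm, and the Kupffer list had a median of 525 CPM on 2% iron and 145 CPM on 500 ppm. The part of these cells in the Ighd difference was not tested.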

How the data were processed

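Liver RNA was measured by stranded mRNA sequencing in a strain panel and a diet study. The authors deposited expected counts and TPM per gene for each study, made with kallisto 0.46 and the mm10 genome per the submitters' processing notes; gene symbols came from an annotation of GENCODE M21 on GRCm38. The design had assumed whole counts, so the deposited expected counts were rounded before testing. The deposited TPM served for comparisons between genes and for class shares. CPM used TMM-scaled library sizes. Tests were edgeR 4.0.16 quasi-likelihood fits over all genes passing filterByExpr, on all 5 diets together or on the BXD and AXB with BXA strains alone, with Benjamini-Hochberg adjustment at 0.05; limma 3.58.1 and DESeq2 1.42.0 were alternatives, and the fits were tested on simulated data. For the panel relations and likeness, log2 CPM used a prior count of 2 and 100000 permutations. Intervals are exact Poisson for counts and Clopper-Pearson for shares, and cover counting error only. The labels give separate mice and no batch.

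Members, gene lists and tests were chosen with earlier results of these data known. Named were all constant genes, members called, the most abundant V genes, the 10 genes most like the summed level, and list genes called or defining.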

Additional observations from a re-analysis of the deposited data

Results flagged for a closer look

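Among the 4 BXH strains, Ighd in BXH10/TyJ was at 1.87 CPM, far from the other 3, of which the highest was at 0.350 CPM and the lowest at 0.0589 CPM. The gap to the next strain passed Dixon's 95% critical value for 4 samples. It was 1 of 8 values checked in this family, and chance flags about 1 in 20 groups.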

How the results depend on the processing

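The summed levels stayed within 1 SD under all 37 alternatives, and no member was called between BXD and AXB with BXA under the 8 alternatives tried. On 2% iron against 500 ppm, the count of members called was 1 under DESeq2 (Ighd adjusted p = 0.0404) and 0 with RLE size factors (0.0513), with no filter (0.0734), with limma on log2(TPM + 1) (0.0914) or log2(TPM + 0.1) (0.109) and with only the 2 groups compared (0.142). It was also 0 with at least 10 counts in every library, where Ighd was not among the 2 members tested. Leaving out 1 mouse at a time gave 0 to 1. With only the 2 groups compared, 2% iron against 50 ppm called 1 member, Ighd (adjusted p = 0.0345). No paired analysis was possible because the labels give no replicate numbers. Among values that were never called, leaving out 1 mouse changed the sign. Igkc ran from -0.18 to 0.63 (2% against 50 ppm), -0.26 to 0.39 (2% against chow) and -0.11 to 0.44 (chow against 50 ppm). Ighm ran from -0.24 to 0.13 (500 against 50 ppm) and -0.42 to 0.084 (2% against chow), and Ighd from -0.81 to 0.19 (500 against 50 ppm). Igha ran from -0.35 to 0.63 (2% against 500 ppm), -0.39 to 0.38 (chow against 50 ppm) and -0.36 to 0.34 (cellulose against 2%). The r of Igha with Hamp was 0.053 on log2(TPM + 1) and 7.3e-05 without BXD65/RwwJ. Relations kept their call in 107 of 120 alternatives, and the number called was 12 to 14. The alternative without NZB/BlNJ was chosen after seeing the data. A search of promoters for the octamer motif was not run, since no immunoglobulin member matched the promoter table used here. Depth limited the diet tests to 4 members, and the panel has 1 mouse for nearly every strain. The causes of these changes were not tested.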
